A study of Mus musculus with 6 samples.

Results

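Nuclear receptors are transcription factors that bind small lipid-soluble ligands or, in the orphan members, act without a known ligand, and coregulators are the proteins they recruit. This account concerns 43 genes, 37 of them receptors and 6 coregulators, taken by name from a list and read from the tables of 21926 genes. The cells were single neurons sorted from mouse hypothalamus, including the ventromedial hypothalamus (VMH). All 43 were listed, and 41 had a count in at least 1 well. The 6 mice were 3 females (females 1 to 3) and 3 males (males 1 to 3), all at postnatal day 10 and of genotype Ai14f/+;Sf1-Cre, so every group carried both the Cre and the reporter and there was no group without them. Sf1-Cre is driven by Nr5a1 regulatory sequence, which is active in the VMH and also outside the brain, and Ai14f is a red fluorescent Cre reporter that stays on in the descendants of a cell that once expressed Cre. Roughly dissected hypothalamus was dissociated with papain, cells were purified by fluorescence-activated sorting (FACS), and each mouse filled 1 plate of 96 wells, so mouse and plate cannot be told apart. Wells were kept with at least 500 genes with a count and under 25% of counts in mitochondrial genes, which left 530 of 576.

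In textbook terms, steroid receptors such as the oestrogen receptor Esr1, the progesterone receptor Pgr and the glucocorticoid receptor Nr3c1 wait for their hormone, bind DNA as dimers and recruit coactivators. Thyroid, retinoic acid and many orphan receptors pair with the retinoid X receptors (Rxra, Rxrb, Rxrg) on response elements built from the letters AGGTCA and can hold corepressors such as Ncor1 when no ligand is bound. In the VMH the orphan receptor Nr5a1 (SF-1) is required for the nucleus to form, Nr0b1 (DAX1) represses Nr5a1 activity, and Esr1 in its ventrolateral part is known for roles in energy balance and reproductive behaviour.

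AGGTCA is the half-site letters that many of these receptors bind, so it was searched on both strands of the 250 bases before each annotated RefSeq start (GRCm38.p6). It was present in 14.0% of 32851 promoters of all genes and in 17.7% of the 62 promoters of the 39 members that matched by symbol (Nr3c1, Thra, Ncoa2 and Ncoa3 did not match). Counted per gene, a match in any of its promoters was found for 10 of the 39. The share per gene was not counted over all genes, so this number has no background. The windows of 3 members whose levels are described below are printed 5′ to 3′ on the gene's strand with the match in capitals. Nr0b1 is shown because its level was higher in neurons with Tac1 in every mouse, Rxrg as the retinoid X partner with the widest difference in detection between marked and unmarked neurons, and Nr1d2 for its spread between plates.
Nr0b1, chrX:86191525-86191774, + strand: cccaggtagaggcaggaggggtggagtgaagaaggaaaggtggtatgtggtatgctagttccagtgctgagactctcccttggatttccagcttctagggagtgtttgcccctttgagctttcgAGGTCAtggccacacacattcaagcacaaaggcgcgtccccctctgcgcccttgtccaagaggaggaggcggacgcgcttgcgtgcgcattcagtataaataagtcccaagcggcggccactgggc
Rxrg, chr1:167618015-167618264, + strand: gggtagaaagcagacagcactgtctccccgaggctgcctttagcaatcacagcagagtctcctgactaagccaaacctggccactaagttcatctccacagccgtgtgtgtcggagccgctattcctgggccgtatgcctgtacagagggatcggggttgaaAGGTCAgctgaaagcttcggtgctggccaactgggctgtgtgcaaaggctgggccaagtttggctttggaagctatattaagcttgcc
Nr1d2, chr14:18239107-18239356, - strand: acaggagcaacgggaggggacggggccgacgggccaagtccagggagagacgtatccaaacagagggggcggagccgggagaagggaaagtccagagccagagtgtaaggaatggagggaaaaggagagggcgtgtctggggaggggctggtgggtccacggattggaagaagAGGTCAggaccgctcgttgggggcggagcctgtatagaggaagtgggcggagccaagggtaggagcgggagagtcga
The match lay 126 to 121 bases before the start in Nr0b1, 88 to 83 before the start shown in Rxrg and 77 to 72 in Nr1d2. The Rxrg window belongs to a start inside the gene. The window of the other annotated Rxrg start (chr1:167598112-167598361), at the beginning of the gene, had no match. These are matches of letters and were not tested as binding sites. The other 7 members with a match were Nr5a2, Rxra, Nr6a1, Pparg, Greb1, Thrb and Rarg.

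Of the 530 kept wells, 510 were neurons by a count in at least 3 of 5 neuron markers, and Stmn2 was detected in every one of them. The 20 other kept wells had a median of 1015 counts, against 6077.5 in neurons. Median counts per kept well were between 5170 and 7979.5 in 5 mice and 2097 in female 2, so values of female 2 are the least precise. The glutamatergic marker Slc17a6 was detected in 79.6% of neurons and Nr5a1, which defines the VMH lineage, in 30.6%. The summed level of 10 VMH markers was between 2034 and 2529 counts per 1000000 (CPM) for females and between 1339 and 1907 for males, without overlap. Tac1 had the largest part of it, at 804 CPM over all neurons. The 7 arcuate markers, none of them at 0, summed to between 79.8 and 1391 CPM in females, with the highest value in female 3, and to between 467 and 1091 in males. Over all neurons Pomc was at 536 CPM and no other arcuate marker was above 67.5 (Isl1), so Pomc made up most of the sum. Markers of astrocytes (7 genes, 32.1 to 46.3 CPM in females and 13.1 to 23.0 in males), of the oligodendrocyte lineage (8 genes, 67.6 to 74.1 and 38.3 to 60.7, Mog at 0) and of vessel cells (5 genes, 8.45 to 17.1 and 3.83 to 7.49) were low and did not overlap between the sexes. Of 6 microglial markers, Cx3cr1, C1qa, C1qb and Ctss were at 0.

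A few of the receptors were seen in many neurons and most of them rarely. In all, 12 members had a count in at least 10% of kept wells, which is 27.9% of the list against 30.1% of all listed genes, and 14 were under 1%. The median member was detected in 3.77% of wells and the median listed gene in 2.08%. Thra, the thyroid hormone receptor alpha, led with 279 wells (52.6%, exact 95% binomial interval 48.3 to 57.0%). Ncor1, the corepressor that unliganded thyroid receptors hold, came next with 198 wells (37.4%), and Nr2f2 (COUP-TFII), an orphan receptor of developing neurons, with 137 (25.8%). Below them were Rxrb (127 wells, 24.0%), the circadian repressor Nr1d1 (101, 19.1%), Nr3c1 (101, 19.1%), Rxrg (87, 16.4%), Nr1d2 (71, 13.4%), Nr0b1 (65, 12.3%), Nr2f6 (64, 12.1%), Nr2f1 (62, 11.7%) and the coactivator Ncoa1 (58, 10.9%). Intervals cover counting error only. The order is one of detection and not of expression, since detection also depends on depth and on how a gene is counted. When neurons of at least 2311 counts were thinned to that number, Thra remained at 26.6% of wells and Ncor1 at 18.5%, and 4 members in all stayed at 10% or more. Thinning left out 51 of the 510 neurons as too shallow, 46 of them from female 2, which kept 33. All thinned values below carry this loss, and thinned directions are the least precise in female 2.

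**Figure D1:**
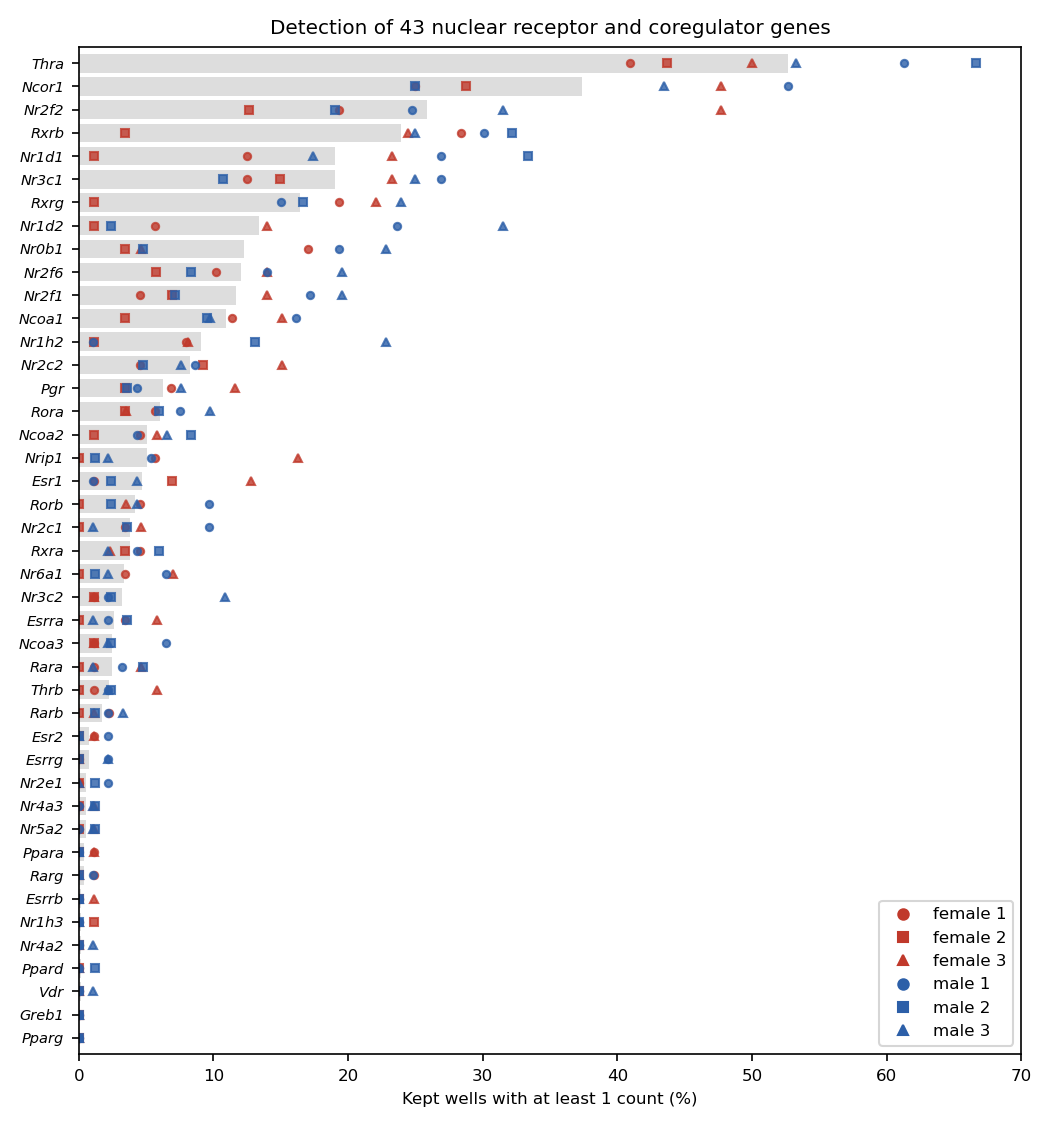
Detection of the 43 members. The x axis is the share of kept wells with at least 1 count in percent, grey bars are all 530 kept wells together and points are the 6 mice, with females in red and males in blue. Thra and Ncor1 lead, female 2 (red squares) is at the low end for Rxrb, Rxrg and Nr1d1, and the bottom 14 genes are under 1%.

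By family, detection ranged widely. Among the 5 steroid receptors the median was 4.72% and only Nr3c1 passed 10%. Of the 2 thyroid hormone receptors, Thra was detected in 279 wells and Thrb in 12 (2.26%). Of the 6 retinoid receptors, Rxrb and Rxrg passed 10%, Rxra was in 20 wells (3.77%), and the retinoic acid receptors Rara, Rarb and Rarg were in 13, 9 and 2. Of the 15 orphan receptors 6 passed 10%, with a median of 6.04% for the group. The 6 receptors for fatty acids, vitamin D and oxysterols were all under 10%: Nr1h2 (LXR beta) was in 48 wells (9.06%), Ppara in 2, Ppard, Vdr and Nr1h3 in 1 each, and Pparg in 0. The 3 oestrogen-related receptors were in 14 (Esrra), 4 (Esrrg) and 1 (Esrrb). Among coregulators Ncoa1 (SRC-1) was in 58, Ncoa2 and Nrip1 (RIP140) in 27 each, Ncoa3 in 13 and the oestrogen-induced Greb1 in 0. A count of 0 in 530 wells allows a share of wells with a count of up to 0.566% by the rule of 3 counts of the total, and of up to 0.694% by the exact two-sided 95% binomial interval. The other orphan receptors below 10% were Nr2c2 (44), Rora (32), Rorb (22), Nr2c1 (20), Nr6a1 (18), and Nr2e1, Nr4a3 and Nr5a2 (3 each), and Nr4a2 was in 1. None of these ranks was compared by a test.

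Levels were then taken as CPM of the counts summed over the neurons of each mouse, listed as females 1 to 3 and then males 1 to 3. Thra was at 118, 279 and 123 CPM in females and 153, 174 and 111 CPM in males. Its counts were 49 in the highest mouse, female 2, and between 51 and 120 in the others. The sexes overlapped, and the highest and lowest mouse of Thra were apart beyond their exact 95% Poisson intervals. Ncor1 was at 57.9, 165 and 98.0 CPM and at 90.8, 50.5 and 67.1 CPM, again with female 2 highest. Nr1d1, which overlaps Thra on the opposite strand, was at 27.8, 5.70 and 38.9 CPM in females and at 40.9, 80.5 and 25.8 CPM in males. The 2 genes share 263 exon bases in the GRCm38 annotation (Thra, chromosome 11, 98740638 to 98769006; Nr1d1, 98767932 to 98775333), and no source used here says whether counting used strand, so reads of the shared end cannot be assigned to one of them.

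Nr1d2, the partner of Nr1d1 in the clock loop, was at 9.26, 5.70 and 20.3 CPM in females and 30.7, 3.74 and 47.8 CPM in males. In male 2, Nr1d1 was at its highest and Nr1d2 at its lowest. These were 43 counts of Nr1d1 and 2 of Nr1d2 in that mouse, against 20 and 37 in male 3. No source used here gives the time of day of collection. Both Nr1d genes had highest and lowest mice whose Poisson intervals were apart.

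Nr2f2, the orphan receptor COUP-TFII, was at 46.3, 74.1 and 144 CPM in females and 55.0, 44.9 and 78.7 CPM in males. Female 3, with the highest level, also had the highest sum of arcuate markers (1391 CPM). The part of cells with these markers in the Nr2f2 level was not tested. Nr2f6 (EAR2), another receptor of the COUP family, was at 18.5, 28.5 and 23.7 CPM and at 17.9, 13.1 and 28.4 CPM, with overlap of the sexes. Nr2f6 showed no mice apart beyond counting error, and it shares 1622 exon bases with Ocel1 on the opposite strand, which leaves its counts uncertain. Rxrb was at 57.9, 17.1 and 47.3 CPM in females and 44.7, 56.2 and 34.9 CPM in males. Rxrg, the retinoid X receptor of restricted expression, was at 51.0, 5.70 and 35.5 CPM and at 21.7, 33.7 and 41.3 CPM. For both, female 2 was the lowest mouse, with 3 counts of Rxrb and 1 of Rxrg.

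Nr0b1, the repressor of Nr5a1, differed between plates within both sexes. It was at 44.0, 22.8 and 6.76 CPM in females and at 30.7, 7.49 and 36.1 CPM in males. Female 3 and male 2 were low, with 4 counts each, and they were also the 2 mice with the highest arcuate sums (1391 and 1091 CPM). That relation was not tested. Over all members with at least 20 counts in neurons, 22 of 43, the Poisson intervals of the lowest and the highest mouse were apart for 10 (45.5%), against 33.8% of 9651 genes with as many counts. Without female 2 they were apart for 9 members (40.9%), against 30.8% of genes. These intervals hold counting error alone, so plates that are apart by them are frequent among all genes.

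Steroid receptors were sparse apart from Nr3c1. Nr3c1 was at 27.8, 91.1 and 37.2 CPM in females and 46.0, 18.7 and 37.4 CPM in males, with overlap. Esr1 was at 4.63, 34.2 and 22.0 CPM in females, from 2, 6 and 13 counts, and at 2.56, 7.49 and 6.45 CPM in males, from 2, 4 and 5. Female 1 lay among the males, so the sexes overlapped (two-sided exact permutation p = 0.3 for 3 against 3 mice). The mineralocorticoid receptor Nr3c2 was at 2.32, 5.70 and 1.69 CPM in females and 2.56, 3.74 and 12.9 CPM in males, with 10 of its 17 counts in male 3. Esr2 (oestrogen receptor beta) had 1, 0 and 1 counts in females and 2, 0 and 0 in males, too few for a level.

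Pgr, whose transcription oestrogen raises in many tissues, was the steroid receptor whose sexes did not overlap. It was at 16.2, 17.1 and 16.9 CPM in females and 6.39, 5.62 and 10.3 CPM in males, from 7, 3, 10, 5, 3 and 8 counts. The means were 16.7 ± 0.462 and 7.44 ± 2.53 CPM (SD, n = 3 each; two-sided exact permutation p = 0.1, the smallest that 3 against 3 can give; adjusted p = 0.88 over 22 members). With thinned wells they were 22.2 ± 8.08 and 6.53 ± 2.68 CPM. The orphan receptor Nr2c2 (TR4), named after its values were seen, was the other member higher in every female, at 25.6 ± 14.2 against 9.34 ± 2.02 CPM (exact permutation p = 0.1, n = 3 each). With thinned wells Nr2c2 was at 16.6 ± 7.5 against 11.4 ± 2.48 CPM. The intervals of its lowest and highest mouse were not apart either. Without female 2 the Nr2c2 difference, male minus female, was -9.12 CPM in place of -16.3, and that of Pgr was -9.11 in place of -9.29. Of 9651 genes with at least 20 counts, 4.92% were higher in every female than in any male, and 2 of 22 members were. The female plates also had higher summed VMH, astrocyte, oligodendrocyte and vessel markers than every male plate, and their part in these levels was not tested. Nr2c2 shares 4590 exon bases with Mrps25 on the opposite strand, so its counts are uncertain.

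**Figure D2:**
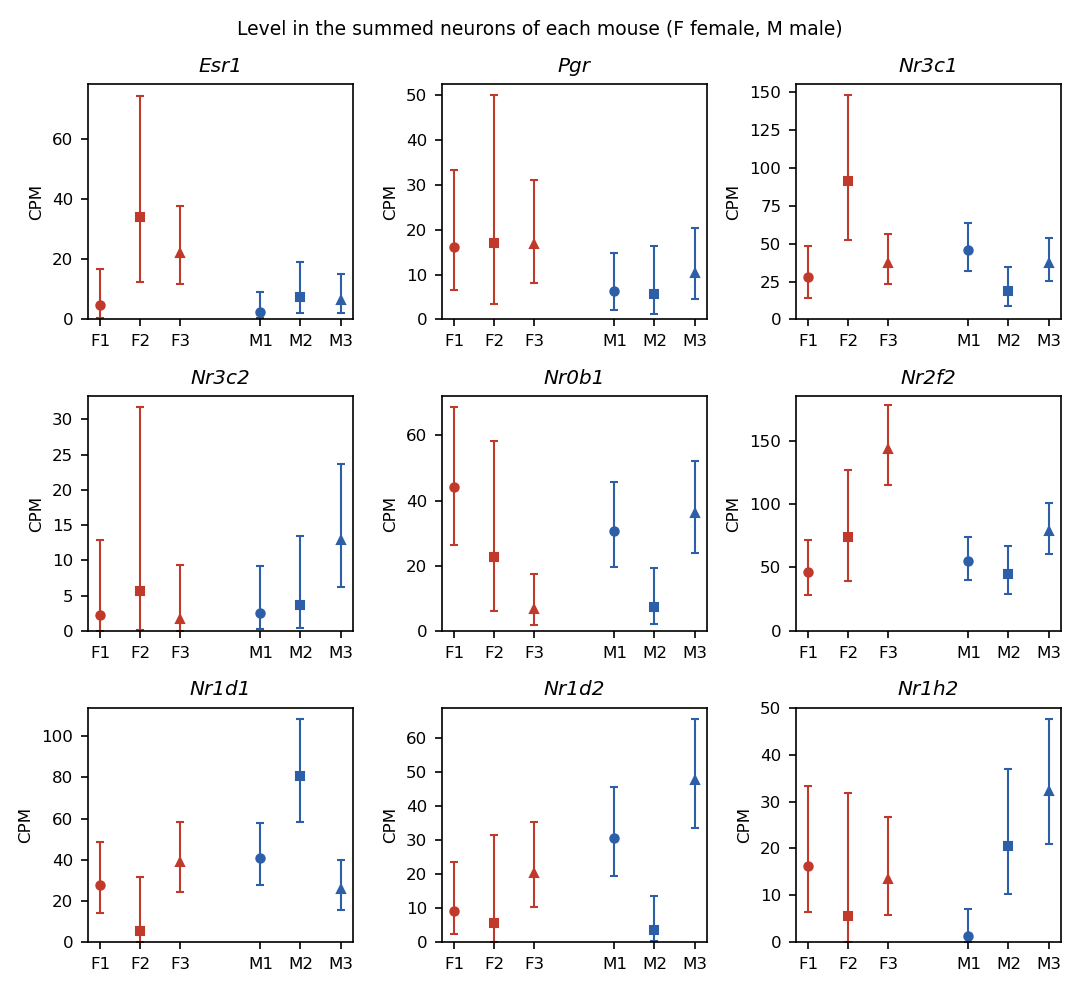
Level of 9 members in the summed neurons of each mouse, in CPM on linear axes from 0, with exact 95% Poisson intervals that cover counting error only. Pgr lies between 16.2 and 17.1 CPM in the 3 females and between 5.62 and 10.3 in the 3 males with wide intervals, while Nr0b1 is low in female 3 and male 2.

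The first comparison asked whether members differed between the sexes in neurons, which the study's title places at its centre. edgeR's quasi-likelihood test on the 6 sums tested 6746 genes and called none (0%, Benjamini-Hochberg adjusted p under 0.05; 156 at an unadjusted p under 0.05, and 4 called by DESeq2). Of the 43 members, 12 passed the filter on low counts (Thra, Ncor1, Nr2f2, Rxrb, Nr1d1, Nr3c1, Rxrg, Nr1d2, Nr0b1, Nr2f6, Nr2f1 and Ncoa1). None was called (0 of 12 in edgeR, 0 in DESeq2, and 0 at an unadjusted p under 0.05). Their median log2 difference, male over female, was -0.12, against -0.03 over all genes tested. Standard errors of the 12 lay between 0.37 and 0.74 on the log2 scale, so that a missed threshold does not show equal levels. Esr1, Pgr and Nr2c2 were too low to enter this test.

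The second question was how members were spread over the sorted neurons that carry different marker genes. Neurons with arcuate markers were not left out, and Pomc was detected in 13.5% of all neurons. A neuron counted as marked with at least 1 count of Nr5a1 (156 of 510), of the neuropeptide genes Tac1 (193), Pdyn (223) or Sst (102), or of Rprm (193), a gene of the ventrolateral VMH. The sets overlap: 437 neurons had any of the 5 markers and 73 had none. Pooled over mice, the median depth was 7198 counts with Pdyn and 5168 without, and 6118.5 and 6077.5 for Sst, where the marked neurons were the shallower in 4 of 6 mice. It was 6707.5 with Nr5a1 and 5484.5 without, 7156 and 5276 for Tac1, and 6779 and 5529 for Rprm. Shares of neurons with a count rise with depth, so unthinned shares are not compared at equal depth. In edgeR with the mouse as a block, 1.11% of 3977 genes were called for Nr5a1, 0.705% of 4396 for Tac1, 0.110% of 4566 for Rprm, 1.90% of 4168 for Pdyn and 0.222% of 3155 for Sst. The fit held 4 members for Nr5a1, 6 each for Tac1 and Rprm, 5 for Pdyn and 3 for Sst. None was called in any of them (0 in edgeR and 0 in DESeq2). At an unadjusted p under 0.05 there was 1, Nr3c1 with Pdyn.

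Nr3c1, the glucocorticoid receptor, was at 8.36, 69.9 and 28.7 CPM in Pdyn neurons (females 1 to 3) and at 35.8, 15.8 and 31.8 CPM (males 1 to 3). In neurons without Pdyn it was at 51.9, 95.3 and 43.1 CPM and at 59.7, 21.4 and 47.7 CPM. Each of the 6 mice had the lower value with Pdyn, although the ranges of the 2 sets overlap. The mean was 31.7 ± 21.4 against 53.2 ± 24.3 CPM (SD, n = 6), with an unadjusted p = 0.0069 and an adjusted p = 0.17 in edgeR. The share of neurons with a count was 17.5% and 21.6%, and 3.62% and 10.9% after thinning. Of 9650 genes, 2.68% were lower with Pdyn in every mouse.

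Nr0b1 had the lower level without Tac1 in every mouse. It was at 51.9, 41.4 and 9.24 CPM in Tac1 neurons of females and 48.4, 8.96 and 48.3 CPM in Tac1 neurons of males. Without Tac1 it was at 36.4, 15.7 and 3.74 CPM and at 17.7, 6.43 and 28.9 CPM. Means were 34.7 ± 20.1 and 18.1 ± 12.6 CPM (SD, n = 6), the difference was in the same direction in 4 of 6 mice after thinning, and 1.69% of all genes were higher with Tac1 in every mouse. In the 2 low mice, female 3 and male 2, it rested on 4 counts each.

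Sst neurons had the lower values of both Nr0b1 and Nr2f1 (COUP-TFI), an orphan receptor of neuronal development named after its values were seen. Nr0b1 was at 35.5, 0 and 0 CPM in Sst neurons of females and 19.8, 0 and 31.5 CPM in Sst neurons of males. Without Sst it was at 46.1, 27.5 and 8.31 CPM and 34.5, 9.57 and 37.3 CPM. A count of 0 allows up to 99.0, 27.1 and 25.9 CPM in the 3 mice at 0 (3 counts of each sum), above their levels without Sst, so the direction in those mice was not detectable at this depth. Nr2f1 was at 0, 0 and 27.1 CPM and 14.9, 8.62 and 25.2 CPM with Sst, and at 14.4, 48.2 and 31.2 CPM and 29.3, 16.7 and 40.6 CPM without. Its limits for the 2 mice at 0 were 35.5 and 99.0 CPM, and without female 2 the mean difference was -11.3 CPM in place of -17.4. Of all genes, 2.69% were lower with Sst in every mouse.

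Directions shared by all mice were about as frequent among members as among all genes. Of 110 pairs of a member with at least 20 counts and a marker, 4 had all 6 mice on one side in the values as measured, sums at 0 included (two-sided exact permutation p = 0.03125, the smallest possible, and adjusted p = 0.625 over the 110). Among all genes the share was 4.08% of 48250 pairs. For the 2 Sst pairs among the 4 the direction was not detectable at this depth in 3 mice (Nr0b1) and 2 mice (Nr2f1). Without female 2, 9 member pairs went one way in the other 5 mice, against 7.81% of all pairs. The 4 pairs and their test were looked at after the data had been seen.

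**Figure D3:**
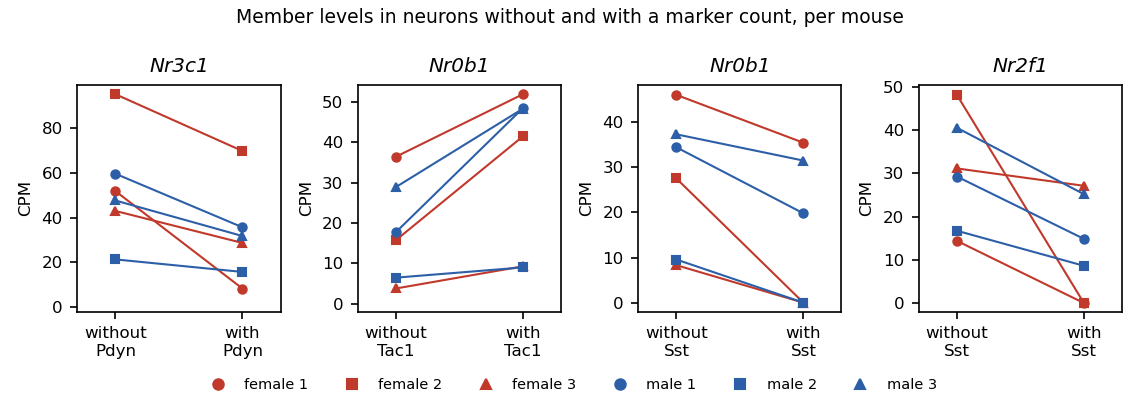
Levels in CPM of Nr3c1, Nr0b1 and Nr2f1 in neurons without and with a count of Pdyn, Tac1 or Sst, with 1 line per mouse (females red, males blue). The 6 lines as measured slope one way in each panel, but 3 of the 6 Nr0b1 values and 2 of the 6 Nr2f1 values with Sst are at 0, where the direction was not detectable at this depth.

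In Nr5a1 neurons, Nr0b1 was detected in 19.9% against 9.60% of neurons without Nr5a1, and after thinning in 5.0% against 4.75%. Its CPM was 42.4, 86.0 and 21.5 in Nr5a1 neurons of females and 34.0, 18.9 and 44.6 in Nr5a1 neurons of males, against 46.0, 13.1 and 0 and 29.3, 0 and 31.7 without. The value was higher with Nr5a1 in 5 of 6 mice, and after thinning in 3 of 6, with a mean difference of 21.2 CPM that became 2.75 CPM. Female 2 gave only 9 Nr5a1 neurons and 2 counts of Nr0b1 in them. Esr1 went the other way in shares: 2 of 156 Nr5a1 neurons (1.28%, exact 95% interval 0.156 to 4.55%) and 23 of 354 others (6.50%, 4.16 to 9.59%) had a count. These intervals cover counting error only and pool wells over mice, and female 2 gave 9 of the Nr5a1 neurons and 70 of the others. Over the 6 mice the two-sided exact permutation p for Esr1 was 0.094 (adjusted p = 0.66 over 110 pairs). Its CPM was lower with Nr5a1 in 5 of 6 mice, from 0 to 2 counts per mouse in the Nr5a1 neurons. After thinning 0 of 80 Nr5a1 neurons and 3.43% of the others had a count. Esr1 was below the filter on low counts here, and without that filter edgeR did not call it either.

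Among the other marked sets Esr1 was detected in 7.77% of Rprm neurons against 3.15% of the rest, in 7.25% of Tac1 neurons against 3.47%, in 6.86% of Sst neurons against 4.41%, and in 4.04% of Pdyn neurons against 5.57%. After thinning the shares were 5.61% against 1.99% for Rprm, 5.07% against 1.87% for Tac1, 4.62% against 2.54% for Sst and 2.90% against 2.80% for Pdyn. The CPM of Esr1 was higher in 3 mice and lower in 3 for each of the 4 markers. These are shares of wells pooled over mice, and females 2 and 3 gave 19 of the 32 Esr1 counts. Pgr was detected in 10.3% of Nr5a1 neurons and 4.80% of others, and after thinning in 3.75% and 2.90%. The CPM of Pgr was higher with Nr5a1 in 4 mice and lower in 2, and after thinning higher in 2 and lower in 4. With Sst, Pgr was in 2 of 102 neurons (1.96%) and in 31 of 408 without (7.6%). Esr1 and Pgr counts met in 1 neuron, of 25 with Esr1 and 33 with Pgr, while 6.60% of neurons without Esr1 had Pgr. Esr1 and Nr3c1 met in 6 of the 25 (24.0%), against 19.6% of neurons without Esr1.

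Thra was spread over all 5 marked sets. It was in between 54.9 and 60.1% of the neurons of each marked set and between 51.1 and 54.4% of the unmarked ones. In CPM it was at 172 ± 86.0 with Nr5a1 and 157 ± 63.6 without, and at 155 ± 65.7 with Pdyn and 168 ± 62.7 without (SD, n = 6). Rxrg was in 24.9% of Tac1 neurons and 12.3% of others, and after thinning in 8.70% and 6.23%, pooled over mice. The CPM of Rxrg was higher with Tac1 in 4 mice and lower in 2, and after thinning higher in 2 and lower in 3. Nr2f2 was in 35.4% of Pdyn neurons and 20.2% of others, and after thinning in 15.2% and 10.9%, also pooled over mice. The CPM of Nr2f2 was higher with Pdyn in 4 mice and lower in 2, and after thinning higher in 5 and lower in 1.

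**Figure D4:**
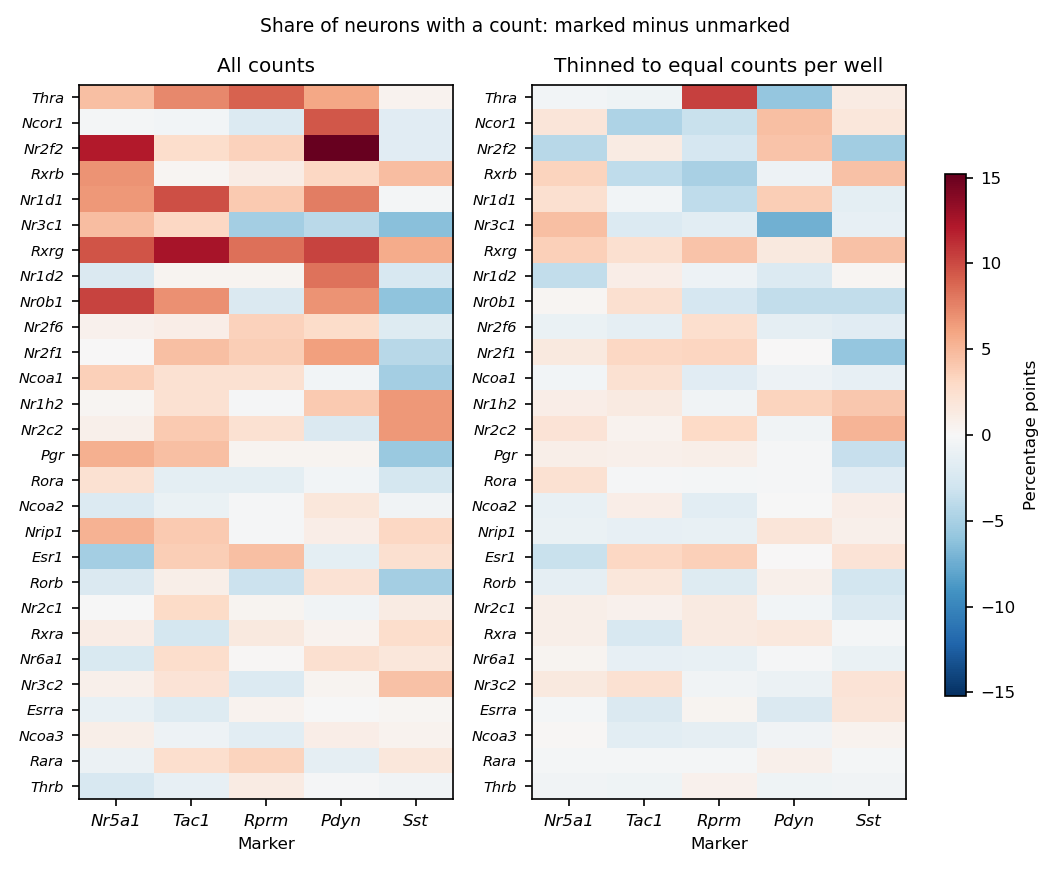
Difference in the share of neurons with a count, marked minus unmarked in percentage points, for the 28 members detected in at least 2% of kept wells (rows) and the 5 markers (columns), with all counts on the left and wells thinned to 2311 counts on the right. The left panel is mostly red for Nr5a1, Tac1 and Pdyn, whose marked neurons also had the higher pooled median depth. The part of depth in these differences was not tested. Shares in the right panel are lower on both sides of each difference, since thinning removes counts.

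Sex was compared again within each marked set. The members tested were 4 in Nr5a1 neurons, 7 in Tac1, 5 in Rprm, 4 in Pdyn and 2 in Sst neurons. edgeR called 0% of 18464 gene and set pairs (514 at an unadjusted p under 0.05, and 10 called by DESeq2) and none of the 22 member pairs (0 at an unadjusted p under 0.05, and 0 in DESeq2). Opposite directions in every female and every male were seen in 3 of 110 member and marker pairs, against 2.82% of pairs over all genes: Esr1 with Tac1 and Pdyn, and Pgr with Pdyn. These are directions of the values as measured, sums at 0 included.

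The other genes of the pathway were tested as lists. The 10 chaperones that hold unliganded receptors (for example Hsp90ab1 and Fkbp4), 27 other genes of coregulator complexes and 24 genes of ligand supply gave 0 calls in edgeR in the sex comparison and in all 5 marker comparisons (148 tests, 7 at an unadjusted p under 0.05, against 6.79% of all 27008 gene tests, and 0 in DESeq2). Their median log2 difference between the sexes was 0.14, 0.02 and 0.28, from 10, 19 and 6 genes tested, against -0.03 over all genes. Of 23 genes known to respond to receptor hormones, 6 were tested for Nr5a1 and 2 were higher, 6 for Tac1 with 1 higher, and 6 for Pdyn with 2 higher, beside the 1.11%, 0.705% and 1.90% of all genes called in those comparisons. For Rprm (6 tested), Sst (5) and sex (11), 0 passed in edgeR (7 of the 22 at an unadjusted p under 0.05, against 4.18% of all 14467 gene tests, and 0 in DESeq2). The lists were chosen with earlier results of these data known, and the marker sets overlap. These shares therefore cannot show that hormone-responsive genes differ more often than other genes.

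The genes that passed were metallothioneins and Nrgn. Mt1 and Mt2 bind zinc and respond to glucocorticoids and to metals. In Nr5a1 neurons Mt1 was at 454 ± 152 CPM against 204 ± 61.7 without (log2 difference 1.08 ± 0.11 SE, edgeR adjusted p = 4.6e-11, higher in 6 of 6 mice). Mt2 was at 127 ± 62.4 against 38.5 ± 17.8 CPM there (log2 1.62). In Pdyn neurons Mt1 was at 402 ± 111 against 185 ± 82.1 CPM (log2 1.21) and Mt2 at 97.5 ± 50.1 against 42.2 ± 20.2 CPM (log2 1.14, adjusted p = 0.0032, higher in 5 of 6 mice). Nr5a1 and Pdyn neurons share 91 wells, 58.3% of the first set and 40.8% of the second, so the 2 results are not independent. Nrgn (neurogranin), a thyroid hormone target in brain, was at 1295 ± 503 CPM with Tac1 and 733 ± 354 without (log2 0.86, higher in 6 of 6 mice). All 5 of these calls were lost when the mouse was not a block (adjusted p from 0.271 upward), and that of Mt2 with Pdyn also in DESeq2, with all kept wells (log2 0.66) and without male 1 (0.93) or male 3 (0.95). The receptors of these hormones, Nr3c1 and Thra, were not called in the same contrasts: Nr3c1 entered the fits for Pdyn and Tac1 but not for Nr5a1, and Thra entered all 3.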

How the data were processed

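Whole-number counts per gene and well were deposited by the authors as raw values of all wells. The submitters' processing notes name HTSeq and mm10, without versions. The aligner, the strand of counting and whether molecules or reads were counted were not given in the sources used here.

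Members and lists were chosen with earlier results of these data known. Kept wells had at least 500 genes with a count and under 25% mitochondrial counts. Total counts of kept wells were 185654 to 783270 per mouse. Neurons needed 3 of 5 neuron markers. Counts were summed per mouse, or per mouse and marker status, and tested in edgeR 4.0.16 (TMM, filterByExpr, quasi-likelihood, all genes, Benjamini-Hochberg, 0.05) in R 4.3.3, after a test on simulated data. Mouse was a block between marked and unmarked neurons. DESeq2 1.42.0, RLE scaling, no filter, deeper wells, thinning (2311 counts, seed 7), capped wells, other marker and reference rules and leaving out each mouse were alternatives. The directions per mouse and their exact permutation tests were added after seeing the data. P-values of the sex comparisons measure the spread between these mice, each of which is 1 plate. Those between marked and unmarked neurons measure how far the difference within a mouse varies from mouse to mouse. Values in every mouse were given for the 10 members detected most, the 5 steroid receptors and members that passed, and fold changes only for genes that passed. Of the lists, up to 4 passing genes per comparison were named. Cells were not clustered and no doublet caller was run. All 96 well names recur on every plate as plate positions, and no 2 kept wells had identical counts. Positions are from GENCODE vM21 (GRCm38).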

Additional observations from a re-analysis of the deposited data

Results flagged for a closer look

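For 3 pairs of a receptor and a marker, there were differences between marked and unmarked neurons of one sign in every female and the opposite sign in every male. The difference between the sexes was not tested. Among all genes, 2.82% of pairs did the same. For Esr1 with Tac1, a sum was at 0 in female 1, male 1 and male 3. For Esr1 with Pdyn it was so in female 1, female 2, male 1 and male 3, and for Pgr with Pdyn in female 2. A count of 0 allows up to 3 counts of the sum, so the direction in those mice was not detectable at this depth.

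The difference of Esr1 with Tac1 was 31.4 CPM lower in males than in females (-31.4). In Tac1 neurons Esr1 was at 9.43, 62.2 and 33.9 CPM in females 1 to 3 and at 0, 4.48 and 0 CPM in males 1 to 3, and without Tac1 at 0, 23.6 and 7.49 CPM and 4.42, 9.65 and 10.3 CPM. These sums held 0 to 11 counts each, and 11 of the 16 counts in female Tac1 neurons came from female 3.

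The difference of Esr1 with Pdyn was 30.1 CPM higher in males. In Pdyn neurons Esr1 was at 0, 0 and 12.3 CPM in females and 4.47, 11.8 and 9.95 CPM in males, and without Pdyn at 10.4, 40.8 and 28.7 CPM and 0, 3.56 and 0 CPM. The sums held 0 to 10 counts.

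The difference of Pgr with Pdyn was 18.5 CPM higher in males. In Pdyn neurons Pgr was at 8.36, 0 and 12.3 CPM in females and 6.70, 7.89 and 11.9 CPM in males, and without Pdyn at 26.0, 20.4 and 20.1 CPM and 5.97, 3.56 and 7.34 CPM. The sums held 0 to 7 counts. Groups of 3 mice were not searched for single outlying mice.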

How the results depend on the processing

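No member was called in the 103 combinations of comparison and alternative setting that tested at least 1 member. In 6 others, 4 of them with thinned wells, no member passed the filter, so they say nothing about members. Numbers of all genes called, which set the background, moved. For sex (0) they were 4 in DESeq2, 31 with no filter on low counts and 0 to 3 without 1 mouse (3 without female 1 or male 3, 1 without female 2). For Nr5a1 (44) they were 10 in DESeq2, 2 with thinned wells, 73 against neurons without any of the 5 markers and 26 to 44 without 1 mouse, lowest without female 3. For Tac1 (31) they were 7 in DESeq2, 57 with no filter, 9 thinned and 16 to 43 without 1 mouse, lowest without male 3 (18 without female 3, 20 without male 2). For Rprm (5) they were 1 in DESeq2, 21 with no filter, 2 thinned, 3 with the highest well capped, 2 at 2 counts or more of the marker, 9 against neurons without markers and 2 to 10 without 1 mouse (2 without female 2, 10 without male 2, 8 without male 3). For Pdyn (79) they were 28 in DESeq2, 9 thinned, 34 against neurons without markers and 46 to 82 without 1 mouse, lowest without male 1. For Sst (7) they were 1 in DESeq2, 14 with no filter, 3 thinned, 11 at 2 counts or more, 4 against neurons without markers and 4 to 8 without 1 mouse, lowest without male 2. For sex within marked neurons (0) they were 10 in DESeq2, 3 with RLE scaling, 100 with no filter, 1 with at least 1000 genes, 2 thinned, 2 with all kept wells, 3 at 2 counts or more and 0 to 7 without 1 mouse (7 without female 1, 5 without female 2, 2 without female 3, 1 without male 1, 6 without male 3). The cause was not tested.

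Without the mouse as a block the numbers were 0 for Nr5a1, 1 for Tac1, 0 for Rprm, 1 for Pdyn and 1 for Sst. The replicate numbers did not pair females with males (correlations of deviations -0.17, -0.08 and 0.16), and the replicate block for sex gave 0 members called.

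The number of members in at least 10% of wells was 12. It was 2 at 2 counts or more in a well, 4 thinned and 11 to 13 without 1 mouse. Pairs in one direction in every mouse were 4, 5 thinned, and 9 without female 2, where 7.81% of pairs over all genes were. The share over all genes was not counted with thinned wells, so the 5 have no background to be read against. Of the 4, Nr3c1 with Pdyn and Nr2f1 with Sst were also among the 5. After thinning, female 2 had only 3 Nr5a1, 4 Pdyn and 2 Sst neurons. Its thinned directions with these markers were therefore hardly detectable, and the shared pairs are weak support. Nr0b1 kept its direction after thinning in 4 of 6 mice with Tac1 and in 5 of 6 with Sst. The Pgr difference, male minus female, was -9.29 CPM and -15.7 thinned, and that of Nr2c2 -16.3 and -5.12. Marked minus unmarked, Nr3c1 with Pdyn was -21.5 and -40.8 thinned, Nr0b1 with Tac1 16.6 and 7.61, and Nr2f1 with Sst -17.4 and -29.0. Mt1, Mt2 and Nrgn kept their direction under every setting that tested them and lost the call without the block (adjusted p up to 0.271 for Mt1 and Mt2 with Nr5a1, 0.357 for Mt1 with Pdyn and 1.00 for the others). Mt2 with Pdyn also lost it in DESeq2, with all kept wells (log2 0.66) and without male 1 (0.93) or male 3 (0.95). Esr1 had 32 counts in neurons and Pgr 36, which limits the precision of their values.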
